A study of Mus musculus with 10 samples.

Results

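The cells described here are the wells of the Gli1-lineage plates that held RNA of Cd34 or Ly6a and none of 3 genes of tendon, mineralising and cartilage cells. A well was a member if it had at least 500 detected genes, at most 10% mitochondrial counts, at least 1 count of Cd34 or Ly6a, and 0 counts of Tnmd, Ibsp and Acan. The rule chose 61 of the 647 wells that passed the filters on genes and mitochondrial counts (9.43%). The other 586 wells of the same plates, which passed the same filters, served as the comparison.

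Single cells of the mouse supraspinatus tendon enthesis, where this shoulder tendon joins bone, were profiled by RNA sequencing of transcript 3′ ends. Each of 7 plates of 96 wells held cells of Gli1CreERT;Ai14 mice given tamoxifen at postnatal days 5 and 7 (P5 and P7), and was made at P7, P11, P14, P18, P21, P28 or P42. Tamoxifen lets the Cre enzyme, made from the Gli1 gene, switch on a red fluorescent protein in Gli1-expressing cells and their descendants, so the P7 plate was collected on the day of the last dose. Another 3 libraries of whole entheses, made in droplets, came from wild-type C57BL/6 mice at P11, P18 and P56, sorted without Cd45-stained and dead cells. Entheses were pooled before digestion, so a plate is 1 pool of animals and no age was repeated. The protocol's wording does not settle whether red cells were kept or left out, and its list of ages omits P14, so the plates are called Gli1-lineage after their titles.

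Cd34 is a sialomucin of the cell surface, and Ly6a (Sca-1) is a lipid-anchored surface protein; both are widely used to sort fibroblasts and their progenitors, and both are also made by endothelial cells. In many tissues fibroblasts around vessels and in loose connective tissue, called adventitial fibroblasts, carry both proteins and make the microfibril protein Mfap5 and the glycoprotein Cd248. Tnmd encodes tenomodulin of tendon fibroblasts, Ibsp a sialoprotein of mineralising matrix and Acan the main proteoglycan of cartilage. In GRCm38 coordinates of the GENCODE annotation, Cd34 lies on chromosome 1 (194938819 to 194961279, plus strand) and Ly6a on chromosome 15 (74994877 to 74998031, minus strand). Mfap5 lies on chromosome 6 (122505845 to 122529290) and Cd248 on chromosome 19 (5068078 to 5070682), both on the plus strand.

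The label was set beside Mfap5 and Cd248, the listed markers that the rule did not use. They were listed with earlier results of these data known, so they are no independent check. Mfap5 was detected in 54 of the 61 members (88.5%) and in 278 of the other wells (47.4%). Cd248 was detected in 22 members (36.1%) and in 73 other wells (12.5%). With every well thinned to 1000 counts, the shares with Mfap5 were 68.9% and 28.3%, and those with Cd248 were 21.3% and 4.8%. In wells with Tnmd, Ibsp or Acan and without Cd34 and Ly6a, Mfap5 was found in 28.0% of 279. The markers thus went with the label, but neither was restricted to the members.

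The rule drew lines through graded values. Cd34 or Ly6a was found in 346 wells, of which 285 were left out because they also held Tnmd, Ibsp or Acan. Just outside the rule, 53 wells had Cd34 or Ly6a and a single count of those 3 genes; Mfap5 was in 75.5% of them, at 2082 CPM (a gene's counts in the summed wells, scaled to a total of 1e+06). Just inside, 8 members had only 1 count of Cd34 and Ly6a together; Mfap5 was in 62.5% of these, at 1383 CPM, against 92.5% and 2424 CPM in the other 53. Wells with Cd34 or Ly6a and at least 2 counts of the 3 genes had Mfap5 at 1278 CPM, and the 22 wells with none of the 5 genes had it at 809 CPM. Because the rule reads the same wells that are compared, genes that vary with its 5 genes differ partly by the choice. An adjusted p between members and other wells is therefore no evidence that the wells form a class of their own. It sets a difference against the spread of that difference over the 7 plates. A small value does not show that the difference recurred on every plate. All 63 member counts of Tnnc1 came from 1 well at P14, yet its edgeR adjusted p was 8.16e-05.

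The members of a plate held between 11155 counts (P28) and 68267 counts (P14) in sum, and the other wells between 224567 and 438645. A plate had 4 to 16 members, and up to 35.9% of a plate's member counts came from 1 well. P14, P18 and P21 together supplied 41 members and 73.3% of the member counts. Median counts per well were lower in members than in other wells on 6 of 7 plates, by 481 ± 677 counts on average (SD, n = 7; two-sided exact sign-flip permutation p = 0.109, where the smallest possible value is 0.0156). On the log2 scale the mean per well was lower in members on all 7 plates (difference -0.28, exact p = 0.0156). The choice of members itself depends on depth: with every well thinned to 1000 counts before the rule was applied, it chose 96 of 644 wells (14.9%) instead of 61 of 647. The 96 well barcodes were the same designed set on every plate, so barcodes could not show shared cells.

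Members were a minority at every age. They were 4 of 96 kept wells at P7 (4.17%, exact Clopper-Pearson 95% interval 1.15 to 10.3), 5 of 95 at P11 (5.26%, 1.73 to 11.9) and 13 of 94 at P14 (13.8%, 7.57 to 22.5). They were 12 of 94 at P18 (12.8%, 6.77 to 21.2) and 16 of 93 at P21 (17.2%, 10.2 to 26.4). At P28 they were 5 of 89 (5.62%, 1.85 to 12.6) and at P42 6 of 86 (6.98%, 2.60 to 14.6). The order of the plates depended on depth. With wells thinned to 1000 counts, the shares were 6.25% at P7, 12.6% at P11, 19.1% at P14, 13.8% at P18, 25.8% at P21, 6.82% at P28 and 20.2% at P42, so that P42 came above P14 and P18. P21 had the highest share either way. At full depth the plates from P14 to P21 had the highest shares, but the intervals, which cover counting error only, overlapped between each of them and at least 1 plate on either side. Over the 7 plates the share did not follow log2 age (Pearson r = 0.18, exact permutation p = 0.693; Spearman rho = 0.43, exact permutation p = 0.354). With P7 and P42 left out, r was 0.09 (exact permutation p = 0.867).

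**Figure D1:**
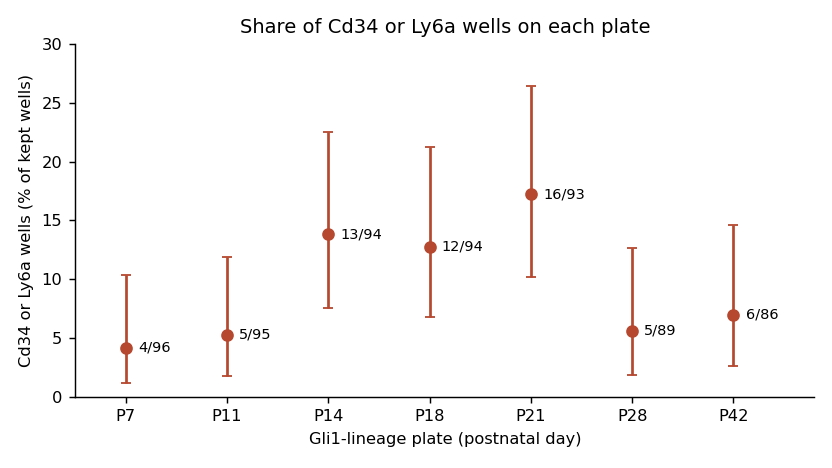
Share of Cd34 or Ly6a wells among kept wells (y axis, percent) on each plate (x axis, postnatal day); bars are exact 95% binomial intervals and labels give members over kept wells. The shares run from 4.17% at P7 to 17.2% at P21.

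Set against all other wells of their plates, many of which lacked Cd34 and Ly6a, the members carried more RNA of adventitial, elastic fibre and complement genes and less RNA of type I collagen, tendon, cartilage and bone genes. Of 8001 genes with at least 30 counts, 135 were higher in the members (1.69% of those tested) and 129 were lower (1.61%), by edgeR's quasi-likelihood test on counts summed per plate with plate as a block and Benjamini-Hochberg adjustment at 0.05. Of these, 35 were higher and 73 lower in CPM on all 7 plates. Of all tested genes, 1.14% were higher and 4.76% lower on every plate. Of the 129 lower genes, 25 had no member count, which makes them lower on any plate where other wells hold a count. Without P21 the calls were 56 higher and 84 lower, and without P14 63 and 86. Without the plate block 2 were higher and 21 lower. The split depended on how libraries were scaled. With TMM factors from all tested genes 26 were higher and 535 lower, with RLE scaling 84 and 165, and with library totals 179 and 103. The median log2 fold change of all genes was -0.60, -0.17 and 0.08 in these fits against -0.03, so each list's median below is to be read beside that of all genes.

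The adventitial genes, a list of 20, had 18 tested, of which 6 were higher and none lower; their median log2 fold change was 1.01, against -0.03 over all genes. Mfap5, a protein of elastin-associated microfibrils, reached 2788, 3140, 1890, 3315, 2338, 1434 and 959 CPM in the members from P7 to P42. In the other wells it reached 307, 1578, 1092, 722, 380, 102 and 1112 CPM. The members were thus above the other wells on every plate but P42 (log2 fold change 1.72 ± 0.22 SE, 3.30-fold, edgeR adjusted p = 7.88e-13).

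Cd248, also called endosialin, stood at 286, 339, 87.9, 288, 265, 0 and 192 CPM in the members and at 20.6, 171, 31.9, 47.3, 37.3, 8.91 and 119 CPM in the other wells. The members were above the other wells on every plate but P28 (log2 1.87 ± 0.41, edgeR adjusted p = 0.000444). The 5 members at P28 held no count, and 3 counts there would be 269 CPM, so no direction can be read on that plate. Ly6c1, a Ly6 family member beside Ly6a, was 2.40-fold higher (edgeR adjusted p = 0.000359) and came without a count in the 4 members at P7. Has1, a hyaluronan synthase, was 2.56-fold higher (edgeR adjusted p = 0.00158), a call lost without P11 or without P21 (adjusted p = 0.140). Cd55, which restrains complement on the cell surface, was 3.77-fold higher (edgeR adjusted p = 0.00173), a call lost without P42 (adjusted p = 0.167), where 1 well gave 36.1% of its counts. Igfbp6, a binding protein for insulin-like growth factors, was higher on all 7 plates by 1.80-fold (edgeR adjusted p = 0.00523, lost without P18 or P21). Of the genes best known for adventitial fibroblasts, Pi16 had 2 counts in all members and was not tested, and Dpp4 (log2 1.24, adjusted p = 0.264), Clec3b (1.17, 0.107) and Dpt (0.90, 0.0801) did not pass edgeR's test.

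**Figure D2:**
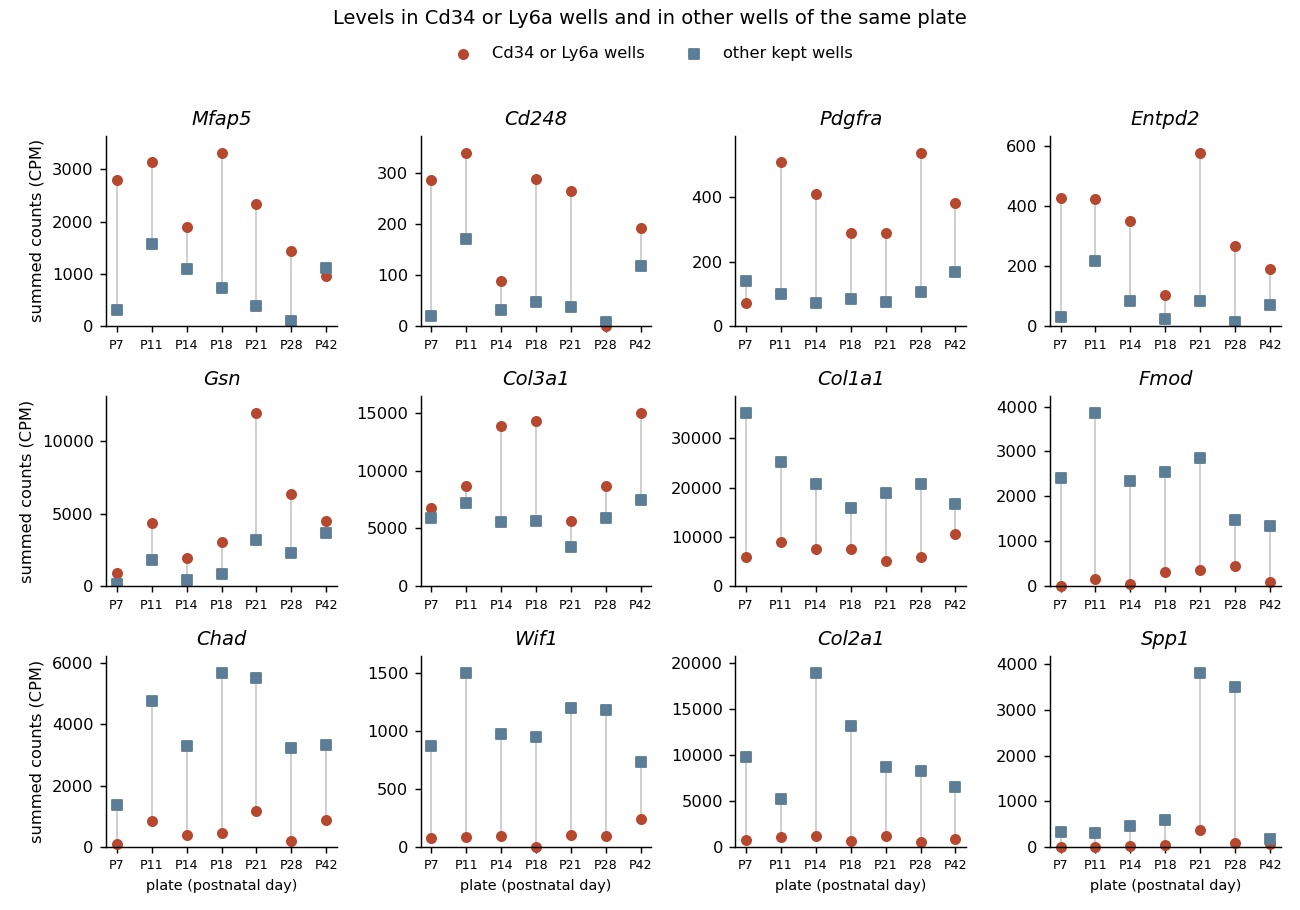
Summed level (y axis, CPM) of 12 genes on each plate (x axis, postnatal day) in Cd34 or Ly6a wells (circles) and other kept wells (squares), joined within a plate. Entpd2, Gsn and Col3a1 were higher and Col1a1, Fmod, Chad, Wif1, Col2a1 and Spp1 lower in the members on all 7 plates.

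Elastic fibres are cores of elastin on a scaffold of fibrillin microfibrils. Of 16 tested genes of this list, 5 were higher and 1 lower, with a median log2 fold change of 0.81. Besides Mfap5 these were elastin itself, Eln (3.69-fold, edgeR adjusted p = 0.000886), the fibulin Fbln2 (2.20-fold, 0.00474), the latent TGF-beta binding protein Ltbp4 (2.05-fold, 0.0185) and fibrillin-1, Fbn1 (1.77-fold, 0.0257). Eln counts came from 15 members at P11, P14, P18 and P21, and there were none at P7, P28 and P42, so groups overlapped and the call was lost without P18 (adjusted p = 0.221). Fbln2 lost its call without P18, Ltbp4 without P14, P18 or P21, and Fbn1 without any of P14, P18, P21, P28 and P42. The lower gene was Lox, the enzyme that crosslinks collagen and elastin (log2 -1.45 ± 0.45, edgeR adjusted p = 0.0445), a call that held only without P11.

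Of 13 tested complement and coagulation genes 4 were higher, with a median log2 fold change of 0.96. Serping1, the inhibitor of the first complement component, was detected in 51 members (83.6%) and in 45.2% of other wells, and was 2.41-fold higher (edgeR adjusted p = 5.47e-05). C1s1, a protease of that component, was higher on all 7 plates (2.51-fold, edgeR adjusted p = 0.0233, lost without P14 or P21). Procr, the endothelial protein C receptor, was 5.00-fold higher (edgeR adjusted p = 0.000463) and found in 15 members. Cd55 was the remaining one. Of 11 chemokine and cytokine genes 2 passed the test, the neutrophil chemokine Cxcl1 (2.89-fold, edgeR adjusted p = 1.09e-08) and Il6 (3.52-fold, 0.0481, kept only without P7 or P42). Cxcl1 ran from 192 CPM (P42) to 9978 CPM (P21) in the members and from 79.8 (P18) to 2306 CPM (P21) in other wells, so the plates differed more than the classes. Ccl2 reached 3977 CPM in the members at P21 and was not found in those at P11, P28 and P42 (log2 0.78, edgeR adjusted p = 0.283).

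Of 10 tested surface proteins of mesenchymal progenitors, 1 was higher and 1 lower, with a median log2 fold change of 0.06. The higher one was Pdgfra, the receptor for platelet-derived growth factor that marks fibroblasts, at 71.5, 509, 410, 288, 289, 538 and 384 CPM in the members. Other wells had 140, 100, 70.7, 85.8, 74.5, 107 and 170 CPM, so the members were above them on every plate but P7 (3.20-fold, edgeR adjusted p = 3.43e-05). In the members at P7, 3 counts would be 214 CPM, so no direction can be read on that plate. The lower one was Nt5e (CD73), with 2 counts in all members and an adjusted p of 0.0162 in edgeR's test that was lost without P14, P18 or P28. Pdgfrb (log2 -0.07), Thy1 (0.86) and Eng (1.13) did not pass. In the adipogenic progenitor list, 2 of 8 genes were higher (Pdgfra and the adhesion protein Icam1, the latter lost without P14, P18 or P21) and 1 lower (Apoe, log2 -1.34, edgeR adjusted p = 7.43e-06), while Pparg, Cebpa and Adipoq had no count in any member.

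The collagens split within 1 list. Of 15 tested, 3 were higher and 3 lower, with a median log2 fold change of -0.12. Col3a1, of pliable connective tissue, stood at 6792, 8657, 13813, 14268, 5688, 8696 and 14960 CPM in the members. The other wells held 5895, 7165, 5583, 5639, 3376, 5882 and 7445 CPM, lower on all 7 plates (log2 0.67 ± 0.16, edgeR adjusted p = 0.00281, lost without P14 or P18). With TMM factors from all tested genes its log2 fold change was -0.01. Col14a1 and the basement membrane chain Col4a2 were the other higher ones (1.75-fold, lost without P14, P18 or P21, and 2.05-fold, lost without P21).

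Col1a1 and Col1a2, the chains of type I collagen, were detected in every member but were lower on all 7 plates. Col1a1 lay between 5206 and 10548 CPM in the members and between 15861 and 35049 CPM in other wells, without overlap (log2 -1.66 ± 0.16, edgeR adjusted p = 2.91e-23). Col12a1, which decorates type I fibrils, was 4.72-fold lower (edgeR adjusted p = 8.65e-08). Sparc, a matrix protein that binds type I collagen, was 3.09-fold lower (edgeR adjusted p = 3.09e-24).

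Small leucine-rich proteoglycans, which coat collagen fibrils, were split as well, with 2 of 12 higher and 5 lower and a median log2 fold change of -0.72. Decorin, Dcn, was higher on all 7 plates by 1.47-fold (edgeR adjusted p = 0.0391), a call kept only without P28 or P42, and Aspn was 1.82-fold higher (0.0159, lost without P18 or P21). Fibromodulin, Fmod, stood at 0, 170, 58.6, 329, 362, 448 and 95.9 CPM in the members against 1342 to 3852 CPM in the other wells. It was 13.1-fold lower (log2 -3.71 ± 0.27, edgeR adjusted p = 2.31e-39). Chad (chondroadherin), Kera (keratocan) and Omd (osteomodulin) were 7.76-fold, 8.78-fold and 5.83-fold lower, each on all 7 plates, and Bgn (biglycan) was 1.92-fold lower.

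Tenomodulin was set to 0 by the rule, and the other tendon genes went with it. Of 16 tested, 9 were lower and 1 higher, with a median log2 fold change of -1.36. Scx, the transcription factor of tendon, was in 5 members (8.2%) and in 23.2% of other wells and was 6.28-fold lower (edgeR adjusted p = 3.33e-05). Wif1, a secreted Wnt inhibitor, was 12.7-fold lower (edgeR adjusted p = 6.34e-25). Thbs4, a thrombospondin of tendon matrix, was 2.55-fold lower (3.62e-05). Tppp3, known from tendon sheath cells, was the exception. It was detected in 85.2% of members and 65.7% of other wells and was 1.92-fold higher (edgeR adjusted p = 0.00159), on every plate but P11.

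Cartilage genes were lower as a group, with 13 of 18 tested genes of the fibrocartilage list lower and none higher. The median log2 fold change was -3.17 as fitted and -2.78 with genes at 0 counts placed at the bound that 3 counts over all members allow. Col2a1, the main cartilage collagen, stood at 715, 1018, 1113, 618, 1133, 538 and 815 CPM in the members. Other wells ranged from 5174 (P11) to 18844 CPM (P14), with no overlap (log2 -3.64 ± 0.20, edgeR adjusted p = 6.75e-68). It was still detected in 51 members (83.6%), and the source of these counts was not tested. Sox9, the transcription factor of cartilage, was in 18.0% of members and 38.1% of other wells (3.08-fold lower, edgeR adjusted p = 0.00198). Col9a1 was 17.4-fold lower and Cnmd, chondromodulin, 18.3-fold lower.

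Of 12 tested mineralisation genes 4 were lower and none higher. Their median log2 fold change was -4.12 as fitted and -1.74 with genes at 0 placed at the bound. Osteopontin, Spp1, ran from 0 to 362 CPM in the members and from 170 to 3804 CPM in the other wells (16.1-fold lower, edgeR adjusted p = 7.55e-25). Osteocalcin, Bglap, was 27.5-fold lower (2.90e-16), and both classes had most of it at P21. Mgp, a vitamin K-dependent inhibitor of calcification, was detected in 90.2% of members and did not pass the test (log2 0.15, edgeR adjusted p = 0.859).

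Hedgehog genes were examined because the mice label Gli1-expressing cells. None of 8 tested genes passed in either direction, and their median log2 fold change was -0.17. Gli1 itself had 0 counts in the 61 members, which allows a summed level of up to 13.9 CPM and up to 4.92% of wells with a count. It was at 11.5 CPM in the other wells, where 25 wells (4.27%) had a count, so a difference was not detectable. At such a level most wells that express the gene would hold no count of it, so these shares do not limit how many wells expressed Gli1. The Hedgehog receptor Ptch1 was in 3 members and the inhibitor Hhip in 2.

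Among 16 tested regulators of Wnt, BMP and IGF signalling, 1 was higher and 3 lower, with a median log2 fold change of 0.45. Igfbp3 was 2.33-fold higher (edgeR adjusted p = 0.00689, lost without P7 or P14). Wif1, Frzb and Sfrp5, all secreted Wnt inhibitors, were lower. No gene passed among 10 growth-associated imprinted genes (median 0.03) or 10 cell cycle genes (-0.16 with genes at the bound). Of 18 immediate early and stress genes, 2 were higher, Zfp36 (1.86-fold, edgeR adjusted p = 0.00953, lost without P21) and Dusp1 (1.92-fold, 0.0161, lost without P11, P14, P21 or P28), with a median of 0.43. The summed level of that list was higher in the members on all 7 plates and ran from 4575 to 25280 CPM across them. Such genes respond to dissociation, and their part in the other differences was not tested.

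**Figure D3:**
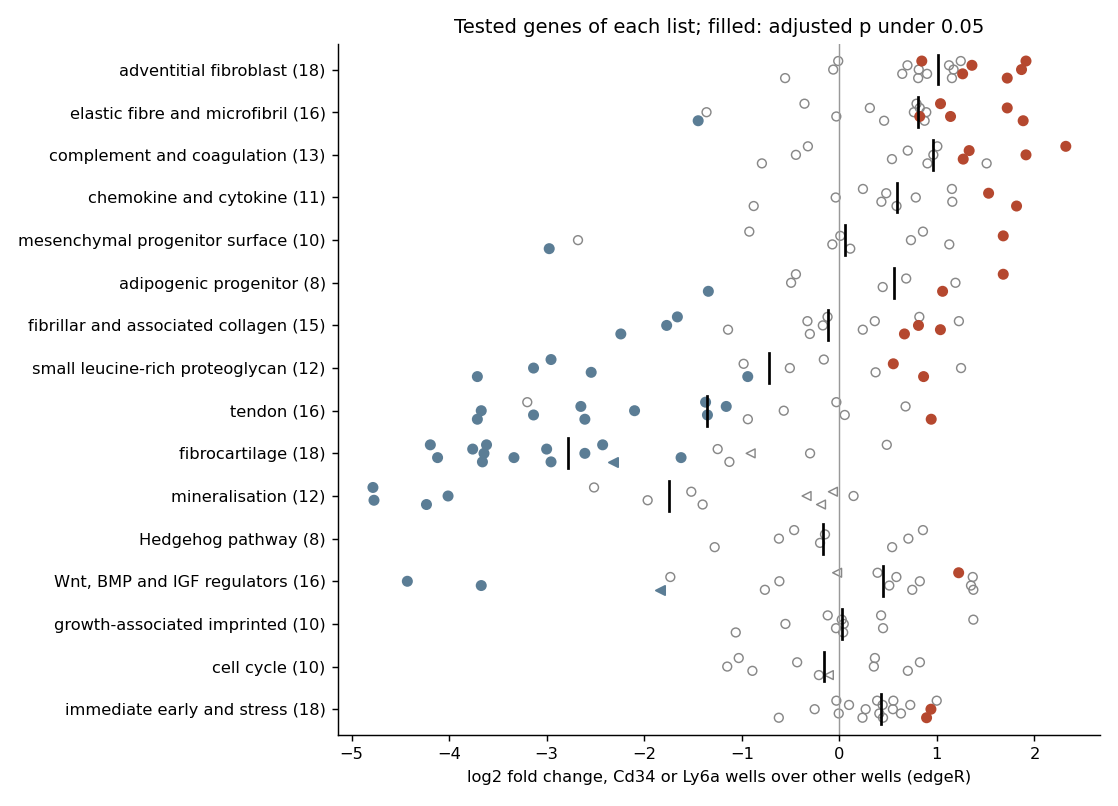
Each point is a tested gene of the list on the y axis (number tested in brackets), at its log2 fold change between members and other wells (x axis); filled points passed edgeR's test, left-pointing triangles are genes with 0 member counts at their bound, and black bars are medians. The adventitial list has its median at 1.01 and the fibrocartilage list at -2.78.

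The genes with the largest rise among those higher on all 7 plates lay mostly outside these lists. Cygb (cytoglobin, a globin of fibroblasts) was at 41.2 to 357 CPM in the members and at 5.91 to 115 CPM in other wells. It was 4.82-fold higher (log2 2.27 ± 0.42, edgeR adjusted p = 9.56e-06). Entpd2, a surface enzyme that breaks down extracellular ATP, was in 52.5% of members and 15.9% of other wells. Its level was 429, 424, 352, 103, 578, 269 and 192 CPM against 29.8, 218, 84.4, 23.7, 85.7, 13.4 and 71.2 CPM (4.57-fold, edgeR adjusted p = 2.34e-07). Gsn, the actin-severing protein gelsolin, was in 56 members at 929 to 11906 CPM (2.71-fold, 6.94e-12), and Rnase4, a secreted ribonuclease, was 2.74-fold higher (1.17e-05). These 4 stayed called whichever plate was left out. The other 11, Rasa2, Celf2, Lgals9, Ramp2, Medag, C1s1, Lamb1, Tprgl, Sept11, Ebf1 and Sntb2, were 2.30-fold to 3.78-fold higher, and each lost its call in at least 1 such fit.

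Among the genes lower on all 7 plates, the 10 with the lowest fitted fold change had no count in any member. Their fitted values are therefore no measure of size, and they are not ranked above genes such as Fmod or Spp1. Without a member count, a gene is lower on every plate where other wells hold a count, so the shared sign adds no support. With 3 counts over all members as the floor, Cytl1, a small secreted protein of cartilage, was at least 5.30-fold lower, and Lgr6, an R-spondin receptor, at least 3.76-fold lower. Sfrp5, Rab11fip4, Stk26, St3gal6, Chst11, Slc1a4, Agt and Cmya5 were at least 2.06-fold to 3.57-fold lower. Cytl1 and Rab11fip4 stayed called whichever plate was left out, and the other 8 all lost the call without P14.

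Markers of other cell types were counted over the same wells. Of 12 immune markers 11, Ptprc among them, had no count in a member, and the 6 erythroid markers had none. Endothelial markers gave 46 counts in 18 members, with Kdr, Emcn, Tie1 and Egfl7 at 0, Pecam1 in 4 members and a summed level of 124 to 717 CPM against 38.4 to 607 CPM in other wells; it was higher in the members on 6 of 7 plates, and its part in the Cd34 and Ly6a counts was not tested. Mural markers ran from 82.4 to 1012 CPM in the members and 222 to 690 CPM in other wells. Of their 84 counts in the members, 33 came from 1 well at P21, the plate with the members' highest value. Dropping every well with a count of any of 7 immune, endothelial or mural genes left 55 members, 114 genes higher and 124 lower. These 7 genes are fewer than the markers counted here, of which endothelial ones were in 18 members and mural ones in 28. Most members with an endothelial or mural marker count therefore stayed in that fit. Skeletal muscle markers ran from 0 to 1832 CPM in the members and from 9.18 to 11292 CPM in other wells, highest at P21 (members) and P42 (other wells), with Pax7 at 0 in members; 7 of 10 tested were lower. The 4 tested markers of synovial lining cells were split, with a median log2 fold change of 0.14. Prg4, the lubricin of lining cells, was 2.38-fold lower (edgeR adjusted p = 2.83e-05), while Has1, also on that list, was higher.

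The comparison depended on which wells the members were set against. Against the 279 wells without Cd34 and Ly6a that held Tnmd, Ibsp or Acan and the 22 with none of the 5 genes, 237 of 5331 genes were higher (4.45%) and 159 lower (2.98%). Mfap5 (log2 3.73), Apod (3.57), Cxcl1 (3.30) and Ly6c1 (2.90) were among the higher genes. Against the 285 wells that shared Cd34 or Ly6a but held Tnmd, Ibsp or Acan, 18 of 5758 genes were higher (0.313%) and 78 lower (1.35%). In that comparison Apod, a lipocalin, was higher by log2 2.06 (edgeR adjusted p = 8.06e-13), and Gsn (0.89), Cygb (1.83), Entpd2 (1.50), Mfap5 (0.90) and Pdgfra (1.21) also passed. Most of the genes that led the lists did not pass against these wells. Of the 6 adventitial genes called against all other wells only Mfap5 passed, while Cd248 (log2 1.07, edgeR adjusted p = 0.234), Ly6c1 (0.51, 0.625), Has1 (0.79, 0.334), Cd55 (1.37, 0.141) and Igfbp6 (0.38, 0.702) did not. Eln (1.27, 0.136), Fbln2 (0.55, 0.612), Ltbp4 (0.46, 0.785) and Fbn1 (0.29, 0.912) of the elastic fibre list did not pass either. Of the 4 complement genes Procr passed (1.89, 0.0318), and Serping1 (0.80, 0.0838), C1s1 (0.81, 0.506) and Cd55 did not. Col2a1 (-2.98), Fmod (-3.27), Chad (-2.57) and Col1a2 (-1.46) were lower there. Of the 135 genes first called higher, 17 were called in this comparison, and of the 129 lower genes 75.

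Against the 22 wells with none of the 5 genes, 24 of 1307 genes were higher (1.84%) and 4 lower (0.306%). These 22 wells were shallower than the members, with a median of 2065 counts. Apod (log2 2.45), Fstl1 (1.91), Mfap5 (1.86) and Ly6c1 (3.05) were higher, and so were Col3a1 (1.19) and Dcn (1.13). Chad (-1.73), Cytl1, Clu (-2.06) and the cartilage gene Snorc (-2.07) were lower. Type I collagen was not lower than in these wells, with log2 fold changes of 0.15 for Col1a1 (edgeR adjusted p = 0.977) and 0.29 for Col1a2 (0.831), neither past the test.

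The members were not uniform. Cd34 and Ly6a were both present in 44 of them, Ly6a alone in 8 and Cd34 alone in 9. The summed level of the adventitial list ran from 463 to 22556 CPM over the 61 wells, with a median of 7910 CPM. In the other wells its median was 2054 CPM and its highest value 25888 CPM, so the distributions overlapped throughout. A member held counts of 1 to 14 of the 20 adventitial genes, with a median of 7, and 57 members held at least 3. By plate the median summed level was lowest at P14 (3837 CPM) and highest at P21 (10582 CPM).

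Wells with both genes had a median adventitial level of 8881 CPM, wells with Cd34 alone 4973 CPM and wells with Ly6a alone 2739 CPM. Mfap5 was in 95.5% of the first, 88.9% of the second and 4 of the 8 of the third. Ly6c1, which neighbours Ly6a in the genome's Ly6 cluster, was in 77.3% of wells with both and 37.5% of those with Ly6a alone, and in 0 of 9 with Cd34 alone. Dcn and Col3a1 did not separate them, being found in at least 87.5% of each. No plate had 3 wells of each of the 3 kinds, so these differences were not tested.

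**Figure D4:**
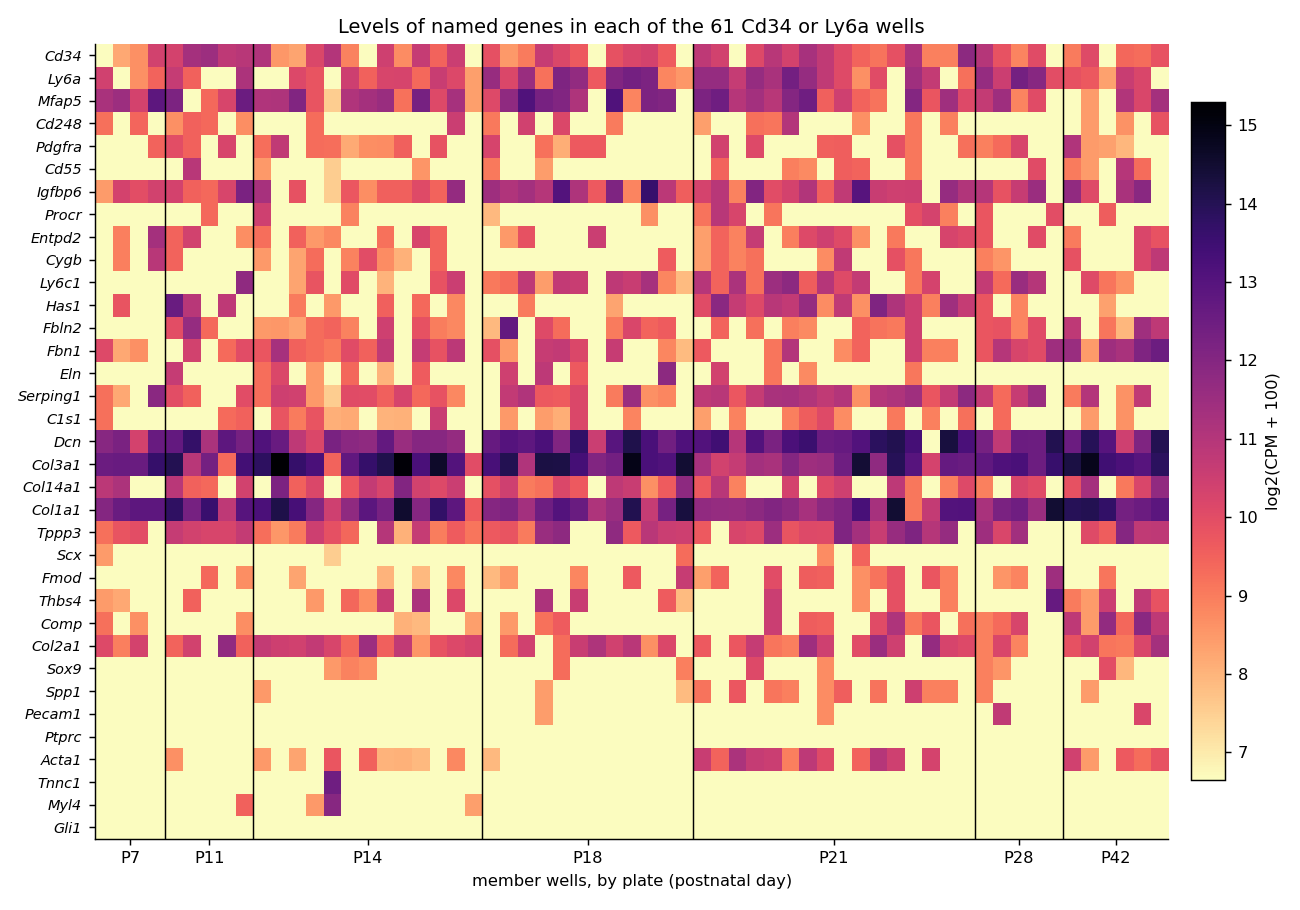
Level of 35 genes (rows) in each of the 61 members (columns, grouped by plate), as log2(CPM + 100). Col3a1 and Col1a1 are present in every column, Ptprc and Gli1 in none, and Tnnc1 in 1 well at P14.

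Whether genes followed age within the members depended on the tool. A slope on log2 age was fitted to the 7 member sums for 1055 genes, and 0 passed edgeR's test (0% called; 64 genes rising and 90 falling had an unadjusted p under 0.05, and DESeq2 called 7 and 45). DESeq2 gave no adjusted p to 738 of the 1055 genes. The 5 genes with the smallest p in edgeR's test are given as values. Mest, an imprinted gene of growing tissue, had 786, 339, 190, 20.6, 48.2, 0 and 0 CPM from P7 to P42, a slope of -2.79 per doubling of age (edgeR adjusted p = 0.278). Igfbp4 went from 1287 CPM at P7 to 95.9 at P42 (slope -1.57, 0.314). Clusterin, Clu, was not found at P7 and P11 and was at 717 CPM at P28 and 575 at P42 (slope 2.14, 0.314). S100a4 (slope 1.92, 0.314) was at 143 CPM at P7 and 3021 at P42, and fibronectin, Fn1 (slope 1.55, 0.314), at 715 and 8535 CPM.

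The lists had no call by edgeR either, with median slopes of 0.68 for 12 adventitial genes, -0.39 for 9 elastic fibre genes and -1.27 for 7 imprinted genes, against 0.02 over all genes. Xist, transcribed from the inactive X chromosome of females, was found in members at P7, P14 and P21 only, so this difference between plates cannot be told apart from age. The slope was also compared between members and other wells. None of 8001 genes passed (0% called; 156 and 116 with an unadjusted p under 0.05, and DESeq2 called 0). Rgs5, Cdh2, Ndufa4l2, Apod and Top3b had the smallest p (edgeR adjusted p from 0.0897 to 0.310), and the member counts of Rgs5 and Top3b came from 1 well each. Apod went from 6365 CPM at P11 to 0 at P42 in the members while it was at 513 and 447 CPM in other wells.

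The whole-enthesis droplet libraries were split by the same rule, read in the droplet cells themselves. They are other animals and another assay, but genes that vary with the 5 rule genes differ by the choice there too, so a shared direction is partly built in and is given as a description. Among mesenchymal droplet cells, taken as cells with at least 0.5% of counts from 12 broad mesenchymal markers and no count of 7 immune, endothelial or mural genes, the same rule chose 465 of 2138 at P11 (21.7%), 135 of 1362 at P18 (9.91%) and 2043 of 3868 at P56 (52.8%). Median counts of the chosen and other cells were 14059 and 14109 at P11, 8316 and 10332 at P18 and 6472 and 6029 at P56. The droplet files shared 4 to 9 barcodes between pairs of libraries.

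Of the 135 genes higher on the plates, 131 were tested in droplets, and 128 (97.7%) had a positive log2 fold change there, with a median of 1.19; over all 13875 genes tested the share was 49.0%. Of the 129 lower genes, 121 were tested and 110 (90.9%) were negative, against 51.0% of all genes, with a median of -2.63. With 3 libraries and 2 residual degrees of freedom, edgeR called 1.59% of droplet genes, 56 higher (0.404%) and 165 lower (1.19%). Procr, Cd55, Entpd2 and Inmt were called higher in both assays, which is 3.05% of the 131 plate genes and 16.7% of the 24 called droplet genes that the plates could test; Inmt, a methyltransferase, was picked out only after its values were seen. Lower in both were 27 genes, which is 22.3% of the 121 plate genes. They were 26.5% of the 102 called droplet genes that the plates could test. Col2a1, Col9a1, Col12a1, Col1a2, Kera, Tnc, Spp1, Bglap and Nt5e were among them. Without the P11 library no gene was called in either direction, and without P56 754 were higher and 1271 lower, so calls in droplets rest on which libraries enter.

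Values of single genes went the same way in each droplet library for the markers. Mfap5 was at 2724, 3788 and 1332 CPM in chosen cells at P11, P18 and P56 and at 402, 80.5 and 530 CPM in the other cells (log2 2.82 ± 0.83, edgeR adjusted p = 0.146). Cd248 was at 480, 330 and 151 CPM against 77.3, 7.60 and 47.4 CPM (2.83 ± 0.73, 0.119). Entpd2 was at 139, 196 and 126 CPM against 31.8, 28.5 and 47.8 CPM (1.78 ± 0.24, 0.0430). Col2a1 was at 30.6, 69.9 and 0.689 CPM in chosen cells against 15170, 33005 and 63.4 CPM (-8.68 ± 0.74, 0.0337).

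Some plate differences did not carry over. Dcn, higher on all 7 plates, had a droplet log2 fold change of -0.31, and Apod 0.70 with P56 below the other cells. The muscle genes Acta1 (1.53) and Ckm (1.66) were positive in droplets and lower on the plates. In the droplets 2 of 20 adventitial genes were called higher (Cd55 and Creb5), and their median of 1.66 stood beside -0.01 over all genes. Elastic fibre genes had a median of 0.81 there, as on the plates, but none was called higher and Lox, Fbn2 and Emilin1 were lower.

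**Figure D5:**
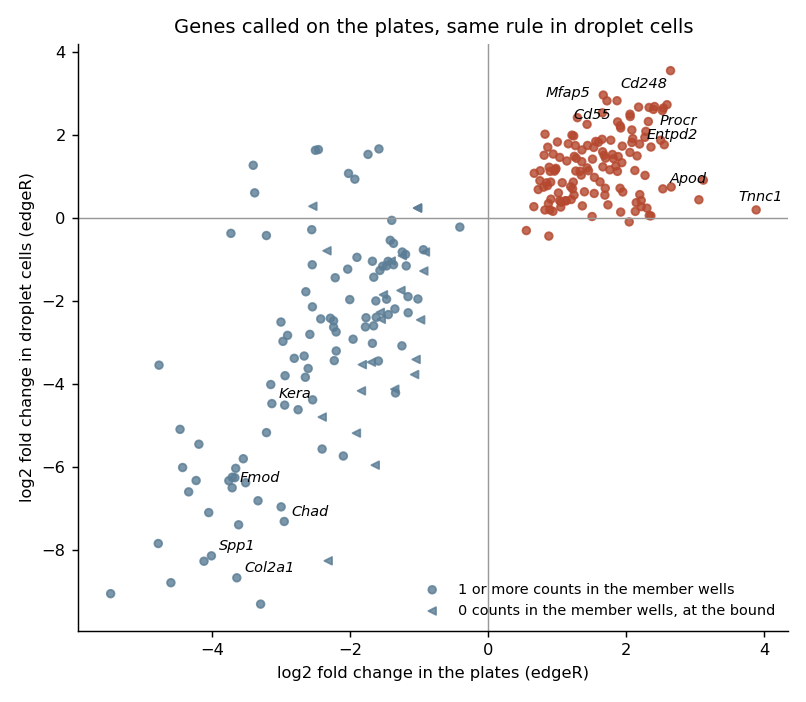
Log2 fold change of the 252 genes called on the plates and tested in droplets, between members and other wells (x axis) and between droplet cells chosen by the same rule and other mesenchymal cells (y axis); triangles are genes with 0 member counts, placed at their bound. Of the genes higher on the plates 128 lie above 0 on the y axis, and of the lower genes 110 lie below it.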

How the data were processed

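The deposited files hold whole-number counts per gene and well (plates) or per gene and cell barcode (droplets), and no normalisation by the authors was found in them; the genome build is mm10, per the submitters' processing notes. Aligner, annotation and the use of molecular identifiers on the plates are not given in the sources used here. Gene positions come from GENCODE M21 (GRCm38). Droplet identifiers and barcodes were read as deposited, and no doublet caller was run.

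Wells were summed per plate and class. Genes with at least 30 counts were tested with edgeR 4.0.16 (R 4.3.3) by the quasi-likelihood test with plate or library as a block. CPM are counts of a sum scaled to a total of 1e+06. For members against other wells, TMM factors came from the 300 genes with most counts, a choice made after the data were seen: on simulated counts TMM over all genes shifted unchanged genes in these shallow sums. All other fits used TMM over all tested genes. The simulation gave both classes 1 starting profile with balanced rises and falls. In the data the summed broad mesenchymal markers were lower in the members on every plate (37389 to 70196 against 83784 to 125475 CPM). It therefore cannot show which scaling is right here. DESeq2 1.42.0 and limma 3.58.1 were alternatives. Plates are single pools of different ages. Where plate was a block, p-values set a difference between classes against its variation from plate to plate. For the slope in members, they set the slope against the scatter of plates about it.

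Members, lists and tests were chosen with earlier results of these data known. Named were the called genes with the same sign on all 7 plates (15 largest rises, 10 largest falls), the 2 markers, up to 4 called genes per list with the smallest p, and the 5 smallest p of fits without calls; further list genes are named to describe their list.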

Additional observations from a re-analysis of the deposited data

Results flagged for a closer look

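Over 18 series of 7 plate values, 1 had a plate far from the others by Dixon's criterion, which chance gives in about 1 of 20 such series. Sntb2, a syntrophin, was at 594 CPM in the 5 members at P11 and between 144 and 269 CPM in the members of the other plates. The plates are of different ages, so this is not a departure among replicates. Without P11 its call between members and other wells was lost (edgeR adjusted p = 0.131).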

How the results depend on the processing

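Against the 135 genes higher and 129 lower of 8001 in the members, RLE scaling gave 84 and 165 and TMM over all tested genes 26 and 535. Library totals gave 179 and 103, and limma on mean CPM 44 and 587. DESeq2 gave 66 and 82, with no adjusted p for 5122 of the 8001 genes. Wells thinned to 1000 counts gave 68 and 94 of 2947 genes tested, so these counts are not shares of the same genes. Against wells with none of the 5 genes the counts were 24 and 4 of 1307, and against wells without Cd34 and Ly6a 237 and 159 of 5331. Against Cd34 or Ly6a wells with Tnmd, Ibsp or Acan they were 18 and 78 of 5758. The plates written without decimals alone gave 46 and 54 of 5148, and those with decimals 39 and 55 of 5198. Leaving out 1 plate gave 56 to 133 and 84 to 120. Both classes come from the same plate, so plate pairs them; without that pairing (no replicate block) 2 and 21 were called, 23 of the first 264 in all. Filters on cells or counts, not listed here, kept both counts within 1.5 times.

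Signs turned for Il6 (-0.65), Icam1 (-0.38), Col1a2 (0.29) and Col1a1 (0.15) against wells with none of the 5 genes, for Col1a1 (0.20) against Acan wells without Tnmd, for Col3a1 (-0.011) with TMM over all genes and for Dusp1 (-0.0743) in thinned wells; the cause was not tested.

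For the slope on age in the members, 0 genes up and 0 down of 1055, DESeq2 gave 7 and 45. It gave no adjusted p to 738 genes. No filter on counts (13375 genes) and thinned wells (441 genes) gave 1 up each. Leaving out 1 plate gave 0 to 1 up. For the difference in slope, up and down, RLE gave 4 and 4, TMM over 300 genes 4 and 3, library totals 5 and 7, at least 100 counts 3 and 1, linear age 1 and 1, at least 2 counts of Cd34 and Ly6a 1 up and Ly6a alone 2 up; leaving out 1 plate gave 0 to 2 up and 0 to 1 down.

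In droplets (56 higher, 165 lower), TMM over 300 genes gave 118 higher, library totals 382 and 344, DESeq2 468 and 753, no filter 267 and 512, at least 100 counts 26 and 103, cells thinned to 2000 counts 281 and 336, and 92 were higher without the deepest 5% of cells. Leaving out 1 library gave 0 to 754 and 0 to 1271.

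The correlation of share and age ran from -0.18 (without P7) to 0.43. The depth difference was -0.28 on the log2 scale, 748 counts against wells with none of the 5 genes, and -617 to -276 counts leaving out 1 plate; without P28 (-617) its exact p was 0.0312, the smallest possible. Shallow member sums limit all of this: 3 counts over all members are 13.9 CPM, and genes below that could not be read as lower. On single plates 3 member counts are 43.9 CPM (P14) to 269 CPM (P28).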

Other observations

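A few genes called higher in the members owed their counts to 1 well, and they were picked out after their values were seen. All 63 member counts of Tnnc1, a troponin of slow and cardiac muscle, came from 1 well at P14, as did 45 of 49 counts of Myl4, an embryonic and atrial myosin light chain, and 14 of 17 of Rasgef1b. This well was the deepest member, with 11700 counts. It held 23 counts of Cd34, the most of any member, none of Ly6a, 34 counts of the skeletal muscle markers and an adventitial level of 855 CPM. The edgeR log2 fold changes of Tnnc1 (3.88 ± 0.78 SE, adjusted p = 8.16e-05) and Myl4 (3.05 ± 0.71, 0.00144) therefore describe a single cell. In droplets the log2 fold change of Tnnc1 was 0.19.

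At the other end, 1 member at P14 with 4320 counts held a single count of Ly6a, 2 adventitial counts (463 CPM) and 11 muscle counts. Another, at P21 with 2577 counts, held 5 endothelial marker genes, 33 counts of mural markers and 6 adventitial counts.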
